A study of Rattus norvegicus with 32 samples.

Results

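The endothelin, renin-angiotensin and adrenomedullin systems were examined in the rat left ventricle through 9 genes: the peptide precursors Edn1, Agt and Adm, the converting enzymes Ece1 and Ace, and the receptor genes Ednra, Ednrb, Agtr1a and Ramp2. They were taken by name, as every non-control probe of the array that carried the symbol of a member in the scanner files of either sex, which gave 13 of 45598 probes for these 9 genes, out of 34912 gene names or identifiers in the female files. Expression was measured on 32 one-colour Agilent arrays, each holding the left ventricle of a single Wistar rat. In each sex there were 5 sham-operated rats (sham group), 5 rats with sepsis from caecal ligation and puncture and a saline infusion (CLP group), and 6 rats with the same operation and an infusion of landiolol, a short-acting blocker of the beta-1 adrenergic receptor (CLP plus landiolol group). All rats were young adults given buprenorphine for pain and infused with like volumes across the groups, and the ventricles were collected at 20 h. The hearts had been imaged in the living animal and then perfused outside the body before they were frozen, and a proportion of the RNA samples had been set aside by the study for low quality or quantity. The arrays of males and females lay on different slides, so levels could not be compared between the sexes, and only differences within a sex were.

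Endothelin-1, made from the Edn1 product by endothelin-converting enzyme, constricts vessels through the ETA receptor (Ednra) on muscle cells, whereas the ETB receptor (Ednrb) is abundant on endothelium, where it releases vasodilators and clears the peptide. Angiotensin-converting enzyme (Ace) forms angiotensin II from a precursor derived from angiotensinogen (Agt), and most cardiac actions of angiotensin II run through the AT1 receptor (Agtr1a). Adrenomedullin (Adm) is a vasodilator peptide induced in sepsis, and its receptor is a complex of the calcitonin receptor-like receptor with the accessory protein RAMP2.

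Values are log2 intensities after quantile normalisation within a sex, so that 1 unit is a doubling. Differences are given as log2 differences with the standard error (SE) of the limma fit. For differences between the sexes all 32 arrays were normalised together, so these need not equal the gap between the differences within each sex. A difference was taken to pass at a false discovery rate of 1% against sham and of 5% between the CLP plus landiolol group and the CLP group, adjusted over all 25864 probes kept in males or 25394 in females. All 9 genes were kept in both sexes through 12 probes, each well above background on all 32 arrays. The remaining probe, A_44_P1114255, carried the name Agtr1a in the male files alone and did not clear the background on a single array. Between 34920 and 43155 spots of a male array and between 36151 and 38705 of a female array were well above background, no spot was saturated, and arrays of a sex correlated at r = 0.961 to 0.988 in males and 0.963 to 0.987 in females. The mean level of 8 cardiomyocyte markers was between 16.97 and 17.78 on every array, and none of them passed the test in any comparison.

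Among the 9 genes, Ace changed most. It was 3.65-fold higher in males and 5.14-fold higher in females after CLP, with every CLP ventricle above every sham ventricle of its sex. It also stood above sham in the rats given landiolol. Ece1 rose 1.83-fold in the male CLP group, and Ramp2 was 1.92-fold above sham in the female CLP plus landiolol group. Of the 9 genes, 2 passed between CLP and sham in males (Ece1 and Ace), where 7.81% of all probes passed, and 1 passed in females (Ace), where 3.63% passed. Between the CLP plus landiolol group and the CLP group, none of the 9 passed on its brighter probe in males, where 1.56% of probes passed, nor in females, where 0.0945% passed. At an unadjusted p under 0.05, 3 of the 9 genes lay past that level in males, beside 3826 of all 25864 probes, and 2 in females, beside 2372 of 25394, and significance analysis of microarrays (SAM) called 0 in both sexes. Between the CLP plus landiolol group and sham, 1 gene passed in males (Ace) with 4.15% of all probes, and 2 passed in females (Ace and Ramp2) with 5.25%. The median difference of the 9 genes between CLP and sham was 0.53 in males and 0.44 in females, beside 0.0091 and -0.015 over all probes tested. The comparisons of the CLP group with sham and of the CLP plus landiolol group with the CLP group share the CLP arrays, and both comparisons against sham share the sham arrays.

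**Figure D1:**
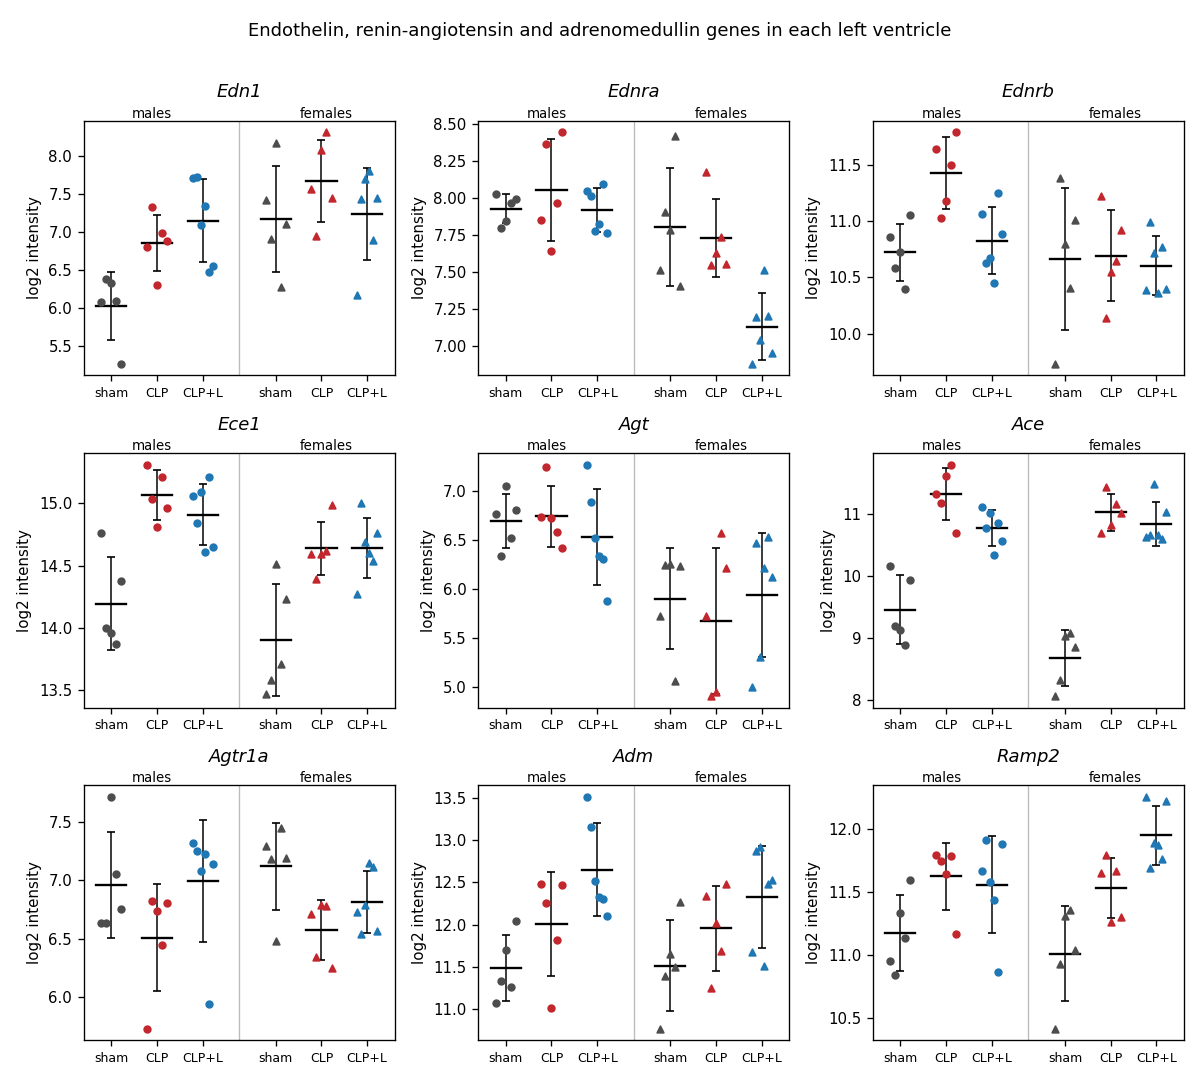
Log2 intensity (vertical axis) of the 9 genes in each of the 32 left ventricles, by group and sex (CLP+L, CLP plus landiolol), on the brighter probe of each gene. Points are single rats, the horizontal line is the group mean and the bar its SD; Ace separates sham from both CLP groups in each sex, whereas the Agt groups overlap throughout. Levels are not comparable between genes or between sexes.

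**Figure D2:**
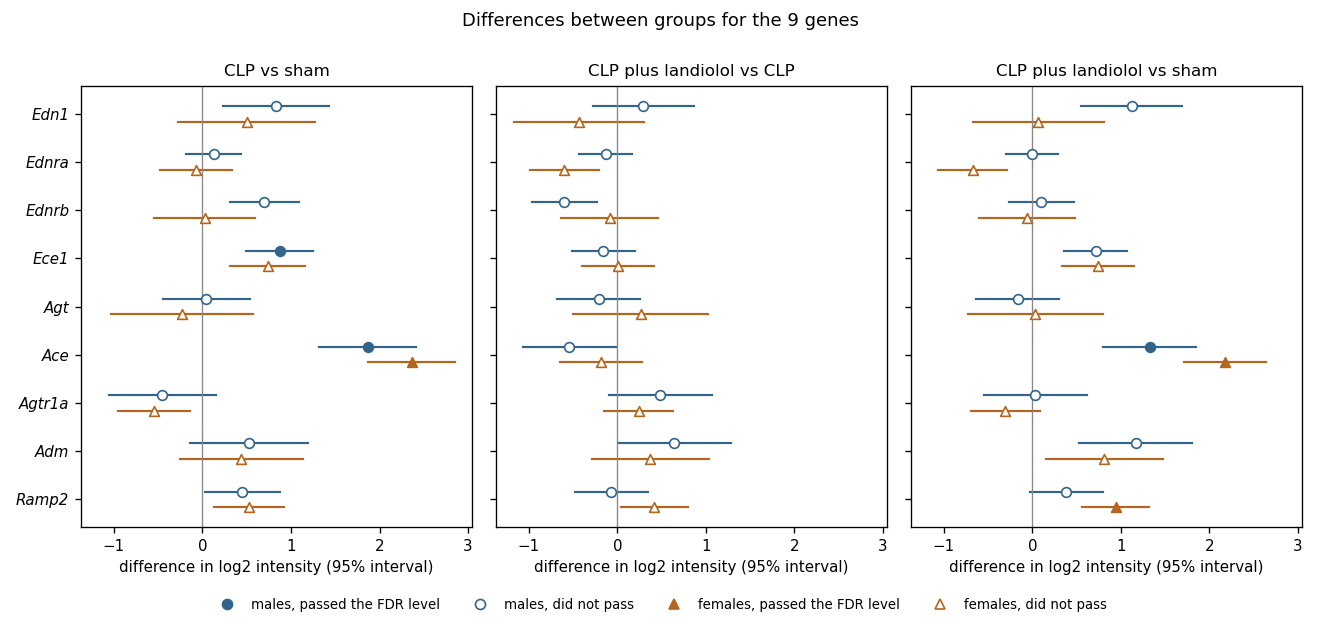
Log2 differences (horizontal axis) with 95% confidence intervals of the limma fit for the 9 genes in 3 comparisons, males as circles and females as triangles. Filled symbols passed the false discovery rate of the comparison: Ece1 and Ace after CLP in males, Ace after CLP in females, none between the CLP plus landiolol group and the CLP group, and against sham Ace in both sexes and Ramp2 in females.

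The converting enzymes come first. Ace encodes the peptidase that forms angiotensin II and degrades bradykinin. In the male sham group Ace read 10.17, 9.19, 9.12, 8.88 and 9.94, and in the male CLP group 11.32, 11.19, 11.61, 11.81 and 10.70. No male CLP ventricle was as low as the highest sham ventricle. The difference was 1.87 (SE 0.26, adjusted p = 0.00019). In the male CLP plus landiolol group Ace ranged from 10.34 to 11.12 with a median of 10.82. These 6 values also lay above every sham value, and the difference from sham was 1.33 (SE 0.25, adjusted p = 0.00304, 2.51-fold). Against the CLP group they were lower by a mean difference of -0.54 (95% interval -1.07 to -0.02, adjusted p = 0.32), with the groups overlapping. Without each of the 11 arrays in turn the difference from sham lay between 1.18 and 1.51, and without male sham replicate 2, 3 or 4 it missed the 1% level, with an adjusted p of 0.0106 at most. The last 6 digits of the sample label were also read as a day, although no label says what they mean. With this day code as a term the adjusted p was 0.0107.

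In the female sham group Ace read 8.06, 8.32, 9.04, 9.08 and 8.86, and in the female CLP group 10.70, 11.44, 10.82, 11.17 and 11.02. The lowest CLP value stood clear of the highest sham value by more than the range of the sham group. The difference was 2.36 (SE 0.23, adjusted p = 3.12e-05). The female CLP plus landiolol group ranged from 10.60 to 11.50 with a median of 10.66, a difference of 2.18 from sham (SE 0.22, adjusted p = 2.92e-05, 4.52-fold; adjusted p = 0.0519 with the row of the array on its slide in the model) and of -0.18 from the CLP group (95% interval -0.65 to 0.28, adjusted p = 0.864). Within the single slides, the difference between CLP and sham was 1.70 and 1.94 in males and 2.66 and 2.15 in females.

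A second Ace probe, A_44_P1157372, gave the same picture. Its sequence is shown, with those of an Ednrb and a Ramp2 probe. Each of these 3 probes carries a change described here and has a single reading frame free of stop codons. Such a frame, which the brighter Ednrb probe A_44_P355013 also has, does not by itself show that a probe is coding. The capitals mark the whole codons of that frame, and the positions are those of the scanner files on build rn4: chr10:95377890-95377949 (plus strand) for Ace, chr15:87896574-87896633 (minus strand) for Ednrb and chr10:90276621-90276680 (plus strand) for Ramp2.
Ace A_44_P1157372: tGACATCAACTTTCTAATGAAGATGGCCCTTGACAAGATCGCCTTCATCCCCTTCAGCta
Ednrb A_64_P004974: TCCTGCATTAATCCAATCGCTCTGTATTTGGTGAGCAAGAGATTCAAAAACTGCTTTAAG
Ramp2 A_64_P260088: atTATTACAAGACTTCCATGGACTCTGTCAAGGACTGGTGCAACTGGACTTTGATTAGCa
On the Ace probe A_44_P1157372 the male sham group read 7.07, 7.08, 6.82, 6.78 and 7.26. The male CLP group read 8.40, 8.87, 9.20, 9.27 and 8.37, a difference of 1.82 (SE 0.21, adjusted p = 5.07e-05). The male CLP plus landiolol group, from 7.33 to 8.33 with a median of 8.13, lay between them and overlapped with neither. Its difference from the CLP group was -0.80 (95% interval -1.22 to -0.37, adjusted p = 0.0599), which did not pass, and its difference from sham was 1.02 (SE 0.20, adjusted p = 0.00441). The latter passed without only 4 of the 11 arrays in turn, with an adjusted p of 0.0148 at most, and was lost without male sham replicate 2, 3 or 4 or CLP plus landiolol replicate 1, 2, 3 or 4. The former passed at 5% without male CLP replicate 1, with array weights and with normexp background correction, the lowest adjusted p under another setting being 0.027. In females the same probe differed by 2.33 between CLP and sham (SE 0.27, adjusted p = 0.000123) and by -0.12 between the CLP plus landiolol group and the CLP group (95% interval -0.68 to 0.43, adjusted p = 0.937). Both Ace probes correlated at r = 0.888 over the 16 male arrays and 0.955 over the 16 female arrays. The excess over sham in the landiolol-treated rats was larger in females than in males by 0.90 (95% interval 0.22 to 1.59) on the brighter probe and by 1.19 (95% interval 0.50 to 1.88) on the dimmer one, at unadjusted p of 0.0118 and 0.00141, and neither passed after adjustment (adjusted p = 0.659 and 0.48).

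Ventricular tissue holds many cell types, and in bulk samples fewer cells of a type and less RNA per cell cannot be told apart. Markers of macrophages and monocytes were read in the same samples as Ace. Of 7 such markers, 3 rose with CLP in both sexes: Adgre1 (F4/80) by 2.79 in males and 2.79 in females, Lyz2 by 1.44 and 1.01, and Cd68 by 0.86 and 0.72. The mean level of the 7 markers was between 9.20 and 9.79 in male sham, 10.01 and 10.90 in male CLP, and 9.57 and 10.77 in male CLP plus landiolol ventricles. In females it was between 9.19 and 9.85, 9.75 and 10.49, and 10.28 and 10.83. Its median was 10.42 in the CLP and 10.57 in the CLP plus landiolol group of males, and 10.39 and 10.47 in females. Of 12 endothelial markers only Emcn passed between CLP and sham, and it fell by 1.08 in males and by 1.34 in females. The endothelial mean was between 11.34 and 11.75 in male sham and 11.32 and 11.70 in male CLP ventricles, and between 10.79 and 11.78 and 10.90 and 11.42 in the female ones. Of 7 neutrophil markers only S100a8 and S100a9 were kept for the test, which needed a clear signal in 1 group only. In sham ventricles 6 of the 7 markers in males and 5 in females were well above background on no array. The sham means given below lay near background, and the sizes of the rises are uncertain. S100a8 rose with CLP by 4.18 in males and 4.15 in females. The mean of the 2 tested markers was between 3.02 and 3.82 in male sham and 5.64 and 8.52 in male CLP ventricles. In female sham and CLP ventricles it was between 2.64 and 4.50 and between 5.87 and 7.62. The second, S100a9, rose by 2.497 in males and differed by 1.95 in females (adjusted p = 0.0328). In the CLP plus landiolol groups the neutrophil mean had a median of 7.94 in males, beside 6.27 in the CLP group, and of 6.76 in females, beside 6.33. Of 8 fibroblast markers, 4 fell and 1 rose with CLP in males (median difference -0.87). In females their median difference was -0.57, and the lowest adjusted p, that of Col1a1 at -1.61, was 0.0239. The part of these cell types in the Ace result was not tested.

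Ece1 encodes the membrane protease that releases endothelin-1 from its inactive precursor. Its brighter probe, A_42_P839121, carried the symbol in the female files alone and a transcript identifier in the male files. In the male sham group it read 14.76, 13.999, 13.96, 13.87 and 14.37, and in the male CLP group 15.31, 15.04, 14.81, 15.21 and 14.96. Every CLP value lay above every sham value, although the highest sham and lowest CLP ventricles were close. The difference was 0.87 (SE 0.18, adjusted p = 0.00335), and 0.67 and 1.02 within the single slides. Without male sham replicate 2, 3 or 4 or male CLP replicate 4 it no longer passed, with an adjusted p of 0.011 at most, and in a fit of the sham and CLP groups alone the adjusted p was 0.0116.

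The male CLP plus landiolol group ranged from 14.61 to 15.21 in Ece1 with a median of 14.95. It overlapped with the CLP group (difference -0.16, 95% interval -0.52 to 0.20, adjusted p = 0.681) and, through the highest sham value, with the sham group (difference 0.72, adjusted p = 0.0137, above the 1% level). In females Ece1 read 13.47, 13.59, 14.51, 13.71 and 14.23 in sham and 14.59, 14.40, 14.60, 14.62 and 14.99 in CLP ventricles. Only 1 sham ventricle lay within the CLP range. The difference, 0.74 (SE 0.20, adjusted p = 0.0284), did not pass at 1%, and the difference between the sexes in the effect of CLP was -0.17 (95% interval -0.71 to 0.37, adjusted p = 1). The second Ece1 probe, A_44_P991864, differed by 1.15 in males (SE 0.42, adjusted p = 0.0741) and by 0.63 in females (adjusted p = 0.276), and correlated with the first at r = 0.915 in males and 0.831 in females.

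**Figure D3:**
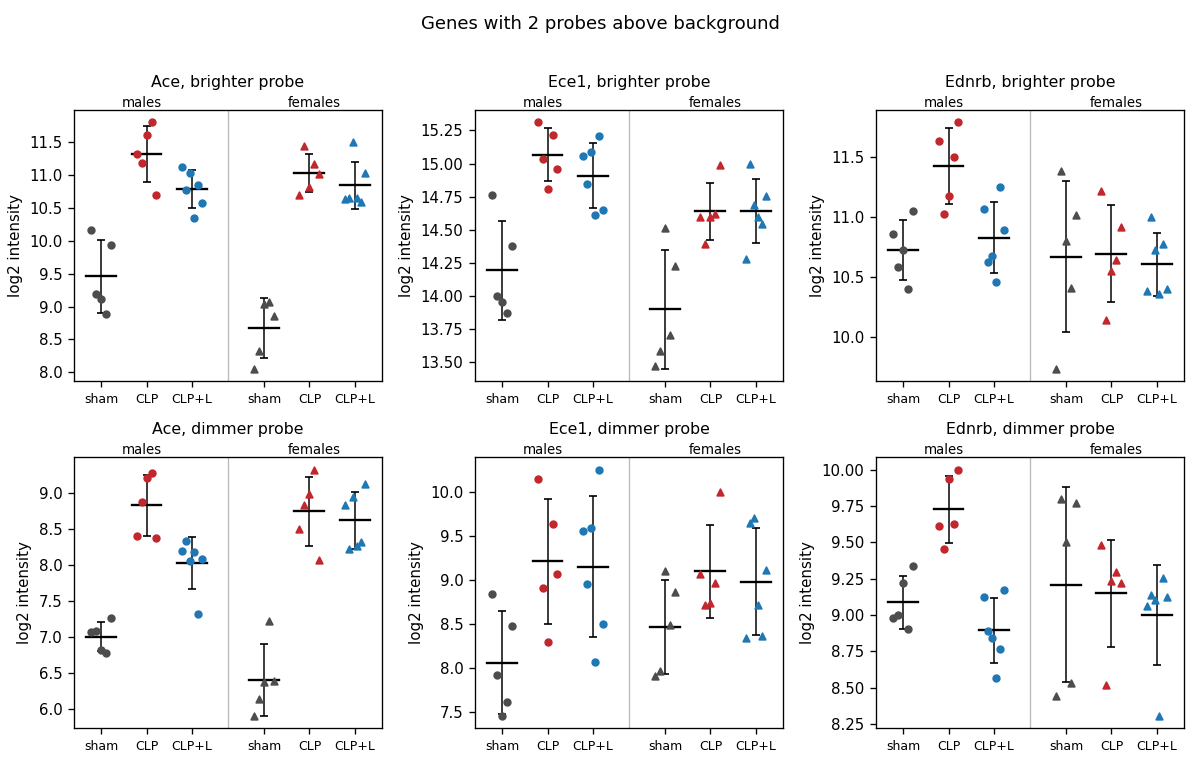
Log2 intensity (vertical axis) of the brighter (top) and dimmer (bottom) probe of Ace, Ece1 and Ednrb in each left ventricle, by group and sex (CLP+L, CLP plus landiolol), with the group mean as a line and the SD as a bar. On both Ednrb probes the male CLP ventricles stand above the male sham and CLP plus landiolol means, with no overlap on the dimmer probe.

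Ace and Ece1 moved together. Over the 32 arrays, after the mean of each sex was subtracted, they correlated at r = 0.852, the highest among the 9 genes, followed by Ace with Ramp2 at r = 0.708 and Ece1 with Adm at 0.62. These points share their group structure, and the correlations are given as a description. The probes of other genes that followed Ace most closely were those of Capg (r = 0.935), Btf3l4 (0.929) and Ddx24 (0.925), and those closest to Ece1 were Spred3 (0.924), Il17ra (0.904) and Hgf (0.9). Closest to Ramp2 were F11r (0.893), Amdhd2 (0.803) and Mcl1 (0.795).

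**Figure D4:**
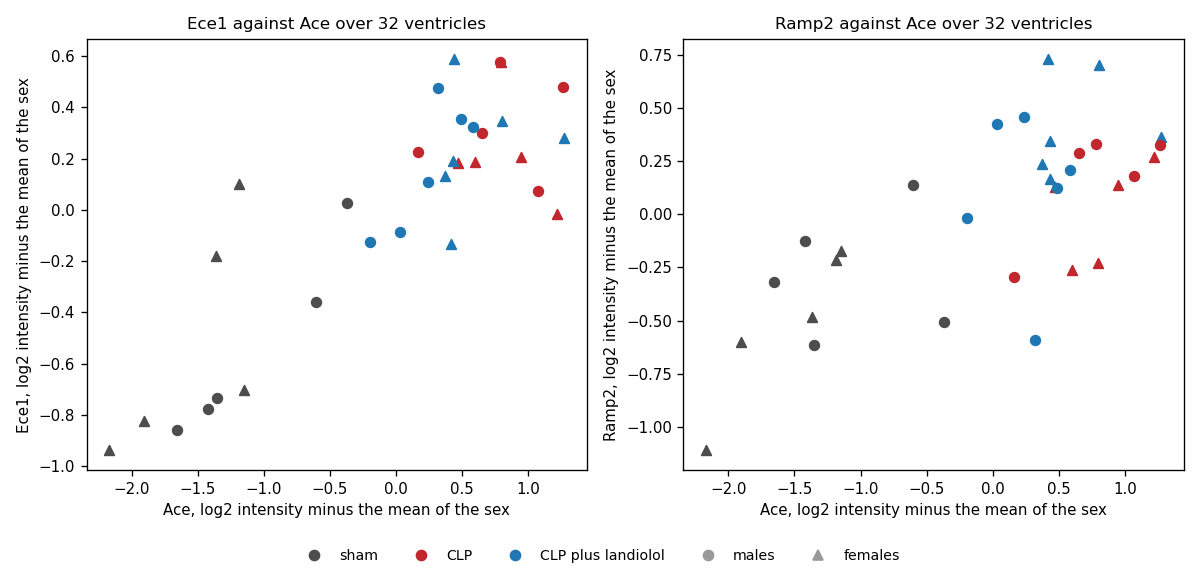
Ece1 (left) and Ramp2 (right) against Ace in 32 left ventricles, as log2 intensity minus the mean of the sex, with groups as colours and sexes as shapes. All sham ventricles lie below 0 on the Ace axis, and the correlation over all points is r = 0.852 for Ece1 and 0.708 for Ramp2.

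Because Ace and Ece1 rose together, the 250 bases before the RefSeq start of each gene on build GRCr8 are shown, chr10:91409879-91410128 (plus strand) for Ace and chr5:155360781-155361030 (plus strand) for Ece1. The capitals mark matches, on either strand, to the TATA box letters TATAAA, the box of that name CCAAT, the GC box core GGGCGG, the hypoxia response core ACGTG, the AP-1 site TGACTCA and the STAT site TTCNNNGAA, with overlapping matches counted.
Ace promoter: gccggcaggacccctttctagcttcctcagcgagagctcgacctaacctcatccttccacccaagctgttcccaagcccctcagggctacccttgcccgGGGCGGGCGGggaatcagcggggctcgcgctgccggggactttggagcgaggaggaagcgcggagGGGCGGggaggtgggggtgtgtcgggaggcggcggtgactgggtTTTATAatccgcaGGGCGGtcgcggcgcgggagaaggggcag
Ece1 promoter: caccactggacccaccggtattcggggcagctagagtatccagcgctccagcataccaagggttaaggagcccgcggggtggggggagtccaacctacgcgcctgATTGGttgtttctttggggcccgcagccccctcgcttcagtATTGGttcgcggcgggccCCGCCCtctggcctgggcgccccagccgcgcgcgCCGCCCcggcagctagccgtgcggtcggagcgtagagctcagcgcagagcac
Both windows were 69.2% G and C, against a median of 51.2% over 33465 promoters of the same length. Both held GGGCGG, the core of the GC box bound by Sp1, which 30.5% of all promoters hold. Of the 7 member genes with a promoter sequence, 4 held it, the others being Adm and Agtr1a, which passed in no comparison. GGGCGG occurred at 4 positions in Ace, a pair of them overlapping, and at 2 in Ece1. TATAAA lay 42 bases before the Ace start on the opposite strand and occurs in 12.9% of promoters. CCAAT, the letters of the CCAAT box, occurred at 2 positions of the Ece1 window on the opposite strand and occurs in 34% of promoters. Neither window held the letters of the hypoxia, AP-1 or STAT motif, which 16.6%, 4.05% and 7.67% of promoters hold. These are matches of letters and not sites at which binding was measured.

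Among the peptide precursors, none passed in any comparison at these levels. Edn1, the precursor of endothelin-1, read 6.08, 6.38, 6.33, 6.09 and 5.26 in male sham and 6.80, 7.33, 6.30, 6.98 and 6.88 in male CLP ventricles. Only the lowest CLP ventricle fell within the sham range, and the difference was 0.83 (SE 0.28, adjusted p = 0.0563). The male CLP plus landiolol group ranged from 6.48 to 7.73 with a median of 7.22. It lay wholly above sham (difference 1.12, SE 0.27, 2.18-fold), with an adjusted p of 0.0146 that missed the 1% level. It passed with array weights, with the slide row as a term, by SAM and at 5%, in 4 of 14 alternatives. The group overlapped with the CLP group (difference 0.29, adjusted p = 0.628). In females the sham range alone, 6.27 to 8.18, covered most values of the other groups, and the differences were 0.50 after CLP (adjusted p = 0.458) and 0.07 between the CLP plus landiolol group and sham (adjusted p = 0.932). The difference between the sexes in this last comparison was -1.06 (95% interval -1.99 to -0.13), with an adjusted p of 0.744.

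Adm, read by a probe spotted 10 times on each array, had a similar order in males. It read 11.07, 11.33, 11.71, 11.26 and 12.05 in sham and 12.48, 12.25, 11.02, 11.82 and 12.47 in CLP ventricles, and ranged from 12.11 to 13.51 with a median of 12.42 in the CLP plus landiolol group. All 6 landiolol-treated males lay above the sham range. The difference from sham was 1.17 (SE 0.30, 2.25-fold, adjusted p = 0.0216), which passed with array weights, by SAM and at 5%, in 3 of 14 alternatives, and those between CLP and sham (0.53, adjusted p = 0.301) and between the CLP plus landiolol group and the CLP group (0.64, adjusted p = 0.336) did not pass either. Within the single slides the CLP plus landiolol group differed from sham by 1.86 and 0.57 and from the CLP group by 1.14 and 0.10. In females the sham ventricles read 10.77, 11.40, 11.65, 11.50 and 12.26, the CLP ventricles 12.34, 11.25, 12.02, 11.68 and 12.48, and the CLP plus landiolol ventricles 11.51 to 12.92 with a median of 12.51. These groups overlapped, and the difference between the last group and sham was 0.81 (adjusted p = 0.103).

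Agt encodes angiotensinogen, the precursor of the angiotensins, which is made mainly in the liver. Its group means were 6.70, 6.74 and 6.53 in male and 5.90, 5.67 and 5.94 in female sham, CLP and CLP plus landiolol groups. All differences lay between -0.23 and 0.26, with adjusted p of 0.674 or more. The widest interval, for CLP against sham in females, ran from -1.03 to 0.57.

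Of the endothelin receptors, Ednrb passed the test in males on the dimmer of its probes and missed it on the brighter. The brighter probe, A_44_P355013, spotted 10 times on each array, read 10.86, 10.58, 10.73, 10.40 and 11.05 in male sham and 11.64, 11.03, 11.17, 11.50 and 11.79 in male CLP ventricles. The groups touched at a single pair of ventricles. The difference was 0.70 (SE 0.18, adjusted p = 0.0154), just short of the 1% level. The CLP plus landiolol group ranged from 10.45 to 11.25 with a median of 10.78, at the sham level (difference 0.10, 95% interval -0.27 to 0.47) and below CLP by a difference of -0.60 (SE 0.17, adjusted p = 0.109).

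The dimmer probe of Ednrb, A_64_P004974, passed in both of these comparisons. It read 8.98, 8.998, 9.22, 8.90 and 9.34 in male sham, 9.62, 9.45, 9.94, 9.63 and 10.002 in male CLP and 8.57 to 9.17 with a median of 8.87 in male CLP plus landiolol ventricles. The CLP group overlapped with neither of the others. It rose by 0.64 with CLP (SE 0.14, 1.56-fold, adjusted p = 0.00641) and fell by 0.83 between the CLP group and the CLP plus landiolol group (SE 0.14, 1.78-fold, adjusted p = 0.00755), and the difference between the landiolol-treated and sham males was -0.19 (adjusted p = 0.421). Within the single slides the CLP plus landiolol group differed from the CLP group by -0.72 and -0.98. This fall passed at 5% without any one of the 11 arrays and under all 14 other settings tried. The rise with CLP was less firm: it passed the 1% level under 10 of the 14 settings and without only 3 of the 10 arrays in turn. Leaving out any of male sham replicates 1 to 4 or male CLP replicates 3 to 5 lost it, with an adjusted p of 0.0198 at most. In females the same probe ranged from 8.45 to 9.80 in sham, 8.52 to 9.48 in CLP and 8.31 to 9.26 in CLP plus landiolol ventricles. Its differences were -0.06 (95% interval -0.66 to 0.54) and -0.15 (95% interval -0.73 to 0.43) in the first 2 comparisons. The sexes differed by -0.70 in the effect of CLP and by 0.67 in the effect of landiolol at unadjusted p of 0.0422 and 0.0401, and neither difference passed (adjusted p = 1 and 0.969). Both Ednrb probes correlated at r = 0.778 in males and 0.831 in females. Of 9 smooth muscle and pericyte markers, Kcnj8 passed between the CLP plus landiolol and CLP groups in males, where it rose by 0.78 (adjusted p = 0.0316), and all 9 had a positive difference (median 0.27). Of the 8 fibroblast markers 6 had a positive difference in this comparison (median 0.33), and none passed. The mean of the smooth muscle and pericyte markers was between 10.03 and 11.09 in male sham and 9.46 and 10.19 in male CLP ventricles. In male CLP plus landiolol ventricles it was between 9.997 and 10.69, and that of the endothelial markers was between 11.43 and 11.70. The part of these cell types in the Ednrb result was not tested.

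Ednra did not pass between CLP and sham in either sex, with differences of 0.13 in males (95% interval -0.18 to 0.43) and -0.08 in females (95% interval -0.48 to 0.33). In females it read 7.51, 7.91, 7.79, 8.42 and 7.41 in sham, 8.18, 7.55, 7.63, 7.74 and 7.56 in CLP, and 6.88 to 7.51 with a median of 7.12 in CLP plus landiolol ventricles. The landiolol-treated females lay below all CLP ventricles. The difference from CLP was -0.60 (SE 0.18, adjusted p = 0.251) and that from sham was -0.67 (SE 0.18, adjusted p = 0.0241), and neither passed. In males the 3 group means, 7.93, 8.05 and 7.92, were close, and the difference between the sexes in the comparison of the CLP plus landiolol group with sham was -0.67 (95% interval -1.13 to -0.20, adjusted p = 0.616).

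Agtr1a had the lowest means in the CLP groups, 6.51 in males and 6.57 in females, beside 6.96 and 7.12 in the sham groups and 6.99 and 6.81 in the CLP plus landiolol groups. The differences of -0.45 and -0.54 between CLP and sham did not pass (adjusted p = 0.337 and 0.0919). In males these values rested on few arrays, since 1 CLP ventricle at 5.73 and 1 CLP plus landiolol ventricle at 5.95 stood below the rest of their groups.

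Ramp2 encodes the partner that turns the calcitonin receptor-like receptor into an adrenomedullin receptor. In females it read 10.42, 10.93, 11.31, 11.36 and 11.04 in sham and 11.65, 11.80, 11.26, 11.66 and 11.30 in CLP ventricles, and ranged from 11.69 to 12.26 with a median of 11.88 in the CLP plus landiolol group. All 6 landiolol-treated females lay above every sham female, and the CLP group stood between them and overlapped with both. Ramp2 rose by 0.94 between sham and the CLP plus landiolol group (SE 0.18, adjusted p = 0.00275), and the difference was 1.05 and 0.79 within the single slides. Without any single array it still passed. The differences of CLP from sham (0.53, adjusted p = 0.0924) and of the CLP plus landiolol group from CLP (0.42, adjusted p = 0.478) did not pass. In males the differences were 0.45 after CLP (adjusted p = 0.148) and 0.39 between the CLP plus landiolol group and sham (adjusted p = 0.236), and the sexes differed in the latter by 0.57 (95% interval 0.03 to 1.11, adjusted p = 0.775). All 5 female sham arrays lay in row 1 of their slides and all 6 female CLP plus landiolol arrays in row 2. With the row as a term, neither Ramp2 (difference 1.03, adjusted p = 0.27) nor Ace (adjusted p = 0.0519) passed in this comparison, although the Ace difference lay between 1.996 and 2.28 under all 14 alternatives, and row and group can be told apart there only through the CLP arrays.

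In the test of the difference between the sexes, none of the 26490 probes passed (0%) in any of the 3 comparisons, with 995, 1307 and 1669 probes at an unadjusted p under 0.05 for CLP against sham, CLP plus landiolol against CLP and CLP plus landiolol against sham. A larger or smaller response of any of the 9 genes in 1 sex was therefore not shown.

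The other genes of these pathways were counted in 4 lists, beside the 7.81% of all probes that passed between CLP and sham in males and the 3.63% in females. Between the CLP plus landiolol group and sham these shares were 4.15% and 5.25%. Of 6 other endothelin genes, 4 were bright enough to be tested, and 1 passed: Ece2, a second endothelin-converting enzyme, fell by 1.15 after CLP in males (SE 0.21, adjusted p = 0.00165) from a mean of 8.71 to 7.56, with 8.09 in the CLP plus landiolol group. In females its difference was -0.74 (adjusted p = 0.0184). The median of the 4 genes between CLP and sham was -0.12 in males and 0.50 in females. Mme, the neprilysin that degrades several vasoactive peptides, differed by 0.81 in males (adjusted p = 0.0231).

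Of 19 other renin-angiotensin genes, 14 were tested in males and 13 in females, and none rose in either comparison with sham. In males 1 fell, Enpep, the aminopeptidase A that converts angiotensin II to angiotensin III, from a mean of 10.78 to 9.78 after CLP (SE of the difference 0.16, adjusted p = 0.000531). It also fell by 0.95 between sham and the CLP plus landiolol group (adjusted p = 0.000965). In females 1 fell, Rnpep, the aminopeptidase B, from a mean of 12.55 to 11.38 after CLP (SE of the difference 0.26, adjusted p = 0.00942), and no gene of the list passed without female sham replicate 2, 4 or 5 or female CLP replicate 2, 3 or 4. Rnpep also fell by 1.29 between sham and the CLP plus landiolol group (adjusted p = 0.0029), whose arrays lay in different rows of the slides. The medians of this list between CLP and sham were -0.13 in males and -0.12 in females. The AT2 receptor gene Agtr2, the second AT1 gene Agtr1b and Mas1, a receptor for angiotensin-(1-7), were not bright enough to be tested in either sex.

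Of 9 other genes of adrenomedullin and the related peptide CGRP, 7 were tested, and 2 passed between CLP and sham in males, both encoding further accessory proteins of the calcitonin receptor-like receptor. Ramp3, which also forms an adrenomedullin receptor, rose by 2.06 (SE 0.37, adjusted p = 0.00148) from a mean of 5.62 to 7.68, with 6.32 in the CLP plus landiolol group, where the difference from CLP was -1.36 (adjusted p = 0.0706). Ramp1, which forms the CGRP receptor, fell by 1.91 (SE 0.30, adjusted p = 0.000517) from 9.21 to 7.30. In females Ramp3 differed by 0.99 (adjusted p = 0.121) and Ramp1 by -1.10 (adjusted p = 0.0846). Calcrl, the receptor itself, differed by 0.09 in males and -0.25 in females (adjusted p = 0.813 and 0.326). The median of the list was 0.09 in males and -0.25 in females.

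Of 25 genes of Gq signalling, the relay shared by the AT1 and endothelin receptors, 25 were tested in males and 24 in females. Between CLP and sham 2 rose and 3 fell in each sex, where 7.81% of all probes passed in males and 3.63% in females. With each array left out in turn, between 3 and 7 of the list passed in males and between 2 and 5 in females. The fewest passed without male sham replicate 3 or 4 or male CLP replicate 3, and without female sham replicate 1, 3 or 5 or female CLP replicate 3. Plcb3 and Grk5, a phospholipase C and a receptor kinase, rose in both, Plcb3 by 0.58 in males and 0.63 in females and Grk5 by 0.90 and 0.76. Plcb1, another phospholipase C, fell by 1.12 in males, and in females it fell by 1.51. The other genes that fell were the protein kinases C Prkca and Prkce in males (-0.90 each) and the regulators of G protein signalling Rgs4 (-1.03) and Rgs5 (-0.91) in females. The medians of the list were -0.14 in males and -0.17 in females. Between the CLP plus landiolol group and sham, 1 rose and 2 fell in males, where 4.15% of all probes passed. In females 2 rose and 3 fell, where 5.25% passed. With each array left out in turn 1 to 4 passed in males and 3 to 6 in females. The fewest passed without male sham replicate 2 or 4 and without female sham replicate 2 or 5. Arrb2, a beta-arrestin, rose by 0.80 in males and 0.78 in females, and Prkce fell, with differences of -1.03 and -1.28. In females the arrays of these groups lay in different rows of the slides, and no fit with the row as a term is given for these genes. Between the CLP plus landiolol group and the CLP group, none of the genes of these 4 lists passed in either sex. Of all probes 1.56% passed there in males and 0.0945% in females. Without male CLP replicate 1, however, 3 genes of Gq signalling passed in males, and without male CLP plus landiolol replicate 4, 1 did. The study, which tested by SAM, reported Grk5 and Plcb4 among the genes reversed by landiolol in males. SAM calls were not counted for these lists here.

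**Figure D5:**
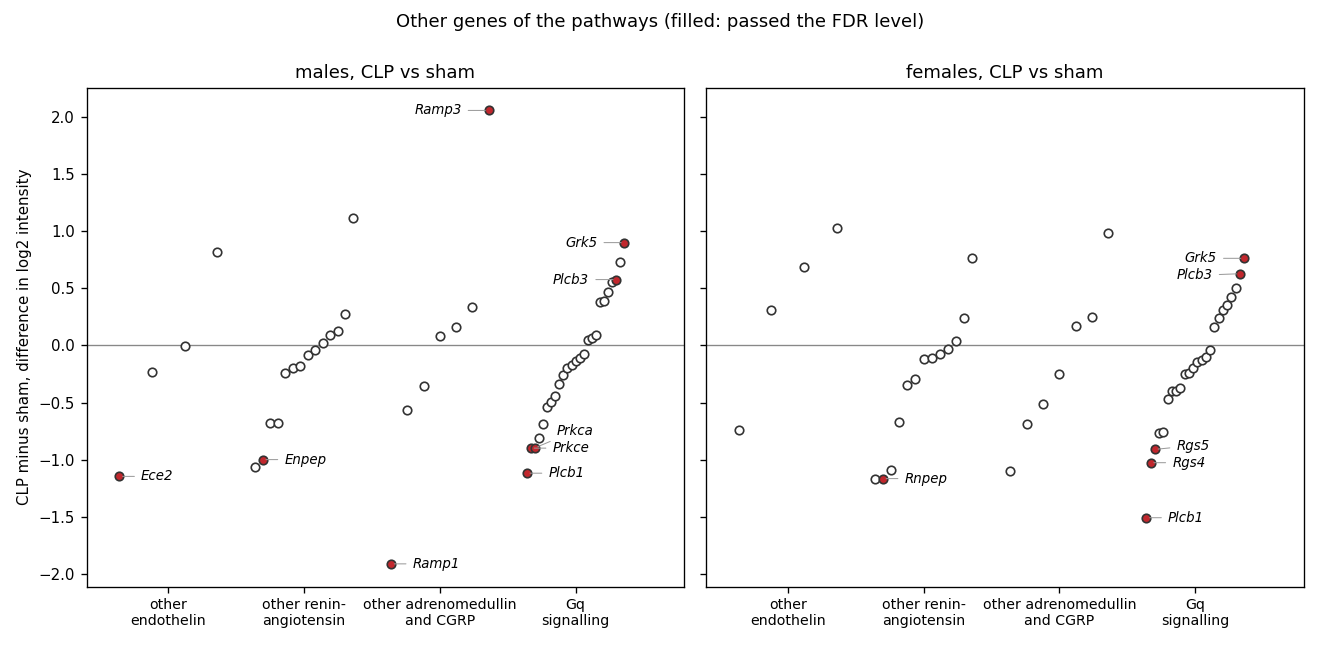
Differences in log2 intensity between CLP and sham (vertical axis) for the tested genes of 4 lists in males (left) and females (right), ordered by size within a list. Filled and named points passed the 1% false discovery rate; Ramp3 and Ramp1 in males lie farthest from 0 in opposite directions, and Plcb1, Plcb3 and Grk5 passed in both sexes.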

How the data were processed

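Left ventricular RNA of 32 rats was hybridised by the study to Agilent 8 × 60K rat arrays in 1 colour, and the images were read with Agilent Feature Extraction 10.5. The deposited scanner files hold the processed intensity of each spot, background-subtracted by that software, and flags. A deposited table of log2 values, which the authors quantile-normalised and filtered on background, with 38223 spots in males and 37605 in females, served as an alternative. Here, outlier spots were left out (213 gaps over all probes and arrays, none in a gene described), spots of 1 probe were averaged on the log2 scale, and arrays were quantile-normalised within a sex. A probe was tested if, in at least 1 of the 3 groups, it was well above background on 80% of the arrays. Group names came from the labels, with replicate numbers in accession order. limma 3.58.1 (R 4.3.3) was fitted to the 3 groups of a sex, or to all 6 groups for sex differences (5% level), with Benjamini-Hochberg adjustment. For sex differences all 32 arrays were quantile-normalised together, and a probe was kept if any of the 6 groups reached the 80%. SAM, with 100 permutations, was an alternative. Where a gene had several probes, the probe with the highest mean over all arrays is reported first. The scripts were tested on simulated data.

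The 9 genes, the pathway lists and the marker lists were chosen with earlier results of these data known. Named beside the 9 genes are list genes that passed, with at most 3 per list and comparison in each direction, a few pathway genes chosen after their values were seen (Mme, Calcrl), and the 3 probes of other genes most correlated with each gene that passed. Promoter sequences are from RefSeq, build GRCr8, which held 7 of the 9 genes. The other alternatives were 75th percentile scaling, normexp background correction (offset 50), other filters, a trended prior and array weights. The slide, its row or the day code as a term, and each array left out in turn, were also tried. The day code is the label digits read as a date, a meaning that no label states. Normalisation of both sexes together was an alternative for tests within a sex, and normalisation within each sex for tests between the sexes.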

Additional observations from a re-analysis of the deposited data

Results flagged for a closer look

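Of 54 groups of values checked for a single distant array (9 genes in 6 groups), 4 held one, where chance gives about 1 in 20. Agtr1a in the male CLP plus landiolol group had its lowest value, 5.95, in replicate 5, with the nearest at 7.08. Agtr1a in the female sham group had its lowest value, 6.48, in replicate 3, with the nearest at 7.18. Edn1 in the male sham group had its lowest value, 5.26, in replicate 5, with the nearest at 6.08. Ramp2 in the male CLP group had its lowest value, 11.16, in replicate 5, with the nearest at 11.64.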

How the results depend on the processing

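The number of the 9 genes that passed moved by over 1.5 times under some alternatives. For the CLP plus landiolol group against sham in males (1 gene), it was 0 with the day code as a term, 2 with normexp background correction, a trended prior or slide row as a term, and 4 with array weights, SAM or both false discovery rates exchanged (5% against sham), with Ece1, Edn1 and Adm as gained calls. For CLP against sham in males (2 genes) it was 1 with only those groups in the fit. For the CLP plus landiolol group against CLP in males (0 genes) it was 1 with array weights, or when any probe of a gene counted. For CLP against sham in females (1 gene) it was 2 with the day code as a term or the rates exchanged, and for the CLP plus landiolol group against sham in females (2 genes) it was 0 with the row as a term and 4 with the rates exchanged. Leaving out each array in turn gave 1 to 3 and 0 to 2 genes in the male comparisons of CLP and of CLP plus landiolol with sham, 1 to 2 and 2 to 3 in the female ones, and 0 in both comparisons of CLP plus landiolol with CLP and in all tests between the sexes. The cause of these shifts was not tested. Among the values of single genes and probes under the alternatives, 33 gained a call, 31 lost it, and none with a call turned in direction. Ace between CLP and sham passed in both sexes under all 14 alternatives and without any single array. No paired analysis was possible because the labels carry no replicate numbers shared by the groups. All 12 tested probes were well above background on all arrays.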
